A study of Mus musculus with 20 samples.

Results

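The contractile genes of smooth muscle were examined in RNA from the cecum of 20 mice. The set holds 10 genes, Acta2, Actg2, Myh11, Myl9, Tagln, Cnn1, Smtn, Lmod1, Des, and Synm, which were picked by symbol as genes of the smooth muscle cell, with earlier results of these data known. All 10 were in the table of 19887 genes, and all 10 were among the 15348 that passed the filter on low counts. The mice were C57BL/6 that had eaten the Total Western Diet (TWD), a rodent diet built to match the nutrient intake of people in the United States, for 6 weeks from about the time of weaning. For a further 3 weeks 5 mice stayed on the TWD with 0% raw potato starch (RPS), and 3 groups of 5 received the TWD with 2, 5, or 10% RPS by weight. RPS is rich in resistant starch, the part of it that is not digested in the small intestine and reaches the bacteria of the cecum and colon. All mice, the controls included, therefore carried the TWD as background, and the labels name no batch. The RNA came from pieces of the cecum wall, which hold mucosa, vessels, nerves, and muscle together. In such pieces a change in the share of muscle cells and a change in the RNA of each muscle cell cannot be told apart.

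Smooth muscle of the gut forms the outer muscle coat of the wall and the thin muscularis mucosae, and its contraction mixes and moves the luminal contents. A rise in calcium activates the myosin light chain kinase, phosphorylated myosin then pulls on actin filaments, and the force is carried to the cell membrane and matrix through dense bodies, dense plaques, and intermediate filaments. Many of the genes of this machinery are activated by serum response factor, which binds a DNA element called the CArG box.

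The genes fall into 4 roles. Acta2 encodes the alpha actin of smooth muscle and Actg2 the gamma actin that is typical of gut smooth muscle. Myh11 encodes the smooth muscle myosin heavy chain and Myl9 its regulatory light chain. Tagln (SM22), Cnn1 (calponin), Smtn (smoothelin), and Lmod1 (leiomodin) encode proteins that bind or organize actin filaments. Des encodes desmin, the main intermediate filament of muscle, and Synm encodes synemin, a large intermediate filament protein that assembles with desmin or vimentin and links it to the attachment sites of the membrane.

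The stretches in front of the start sites are shown because the genes moved together across the mice, as the values further on show. In windows from 250 bases before to 50 after the start of the canonical transcript, a strict CArG box (CC, then 6 bases that are A or T, then GG, a pattern that reads the same on both strands) was found in 299 of 19827 genes of the table (1.51%) and in Tagln alone of the 10. When the starts of all annotated protein-coding transcripts were used, a search added after the first had been seen, 541 of 17585 genes (3.08%) held a box at 1 or more starts, with 3.44 starts per gene on average. Of the 10 genes, which had 34 such starts, 5 did, namely Acta2, Actg2, Myl9, Cnn1, and Tagln. The 160 bases before such a start are given here for 4 of these 5 genes from GRCm39, 5′ to 3′ on the strand of the gene, with the CArG boxes in capitals. They lie at chr19:34231631-34231790 (minus strand) for Acta2, chr2:156617214-156617373 (plus) for Myl9, chr9:22011328-22011487 (plus) for Cnn1, and chr9:45847405-45847564 (minus) for Tagln.
Acta2: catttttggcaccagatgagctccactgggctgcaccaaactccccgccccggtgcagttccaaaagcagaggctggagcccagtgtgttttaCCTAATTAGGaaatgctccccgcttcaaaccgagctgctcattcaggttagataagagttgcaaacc
Myl9: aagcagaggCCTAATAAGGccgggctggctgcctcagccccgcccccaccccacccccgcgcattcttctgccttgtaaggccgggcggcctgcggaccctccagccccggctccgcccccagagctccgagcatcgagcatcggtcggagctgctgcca
Cnn1: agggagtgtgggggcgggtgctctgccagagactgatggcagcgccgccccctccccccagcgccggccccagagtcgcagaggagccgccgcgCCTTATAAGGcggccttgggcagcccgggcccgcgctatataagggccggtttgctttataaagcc
Tagln: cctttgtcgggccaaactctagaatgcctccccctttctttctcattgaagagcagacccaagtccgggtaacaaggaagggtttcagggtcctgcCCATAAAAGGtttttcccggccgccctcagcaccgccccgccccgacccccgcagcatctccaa

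The box began 64 bases upstream of the start in Tagln, 66 in Cnn1, 67 in Acta2, and 151 in Myl9. For Tagln this is the canonical start, and for Acta2, Myl9, and Cnn1 it is another annotated start, which can lie inside a longer transcript of the same gene. A match of letters is not a measurement of binding, and Des, Myh11, Lmod1, Smtn, and Synm had no match in these windows. Which start was used in the cecum cannot be read from counts per gene.

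Total counts were between 14967798 and 42687283 per mouse, with medians per diet between 26931665 (10% RPS) and 33638054 (5% RPS). The 10 genes together took 0.296% to 0.635% of all counts in mice fed 0% RPS and 0.495% to 0.839% in mice fed 10% RPS. Levels were compared between genes as CPM, counts scaled to the size of the library, per kilobase (kb) of exon. Tagln had the highest level with 469.8 ± 134.1 CPM per kb (SD over 20 mice), followed by Actg2 (269.5 ± 146.2), Acta2 (245.7 ± 67.7), Myl9 (226.8 ± 60.0), and Myh11 (209.7 ± 73.0). The differences among the last 4 were smaller than their spread over mice. Cnn1 (148.0 ± 65.4), Des (103.1 ± 60.2), and Smtn (85.9 ± 27.3) followed and also lay within 1 SD of their neighbours, and Lmod1 was lower (16.0 ± 4.53 CPM per kb). These 9 genes lay between the 86.2nd and the 99.7th percentile of all tested genes.

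Synm stood apart at 0.202 ± 0.115 CPM per kb, at the 9.94th percentile of the tested genes. It had 8 to 111 counts per mouse, against 874 to 3492 for Lmod1, the next lowest. Its values therefore carry more counting error than those of the other 9 genes. Synm also had the widest range over the 20 mice, 10.6-fold between the lowest and the highest, followed by Des (7.51-fold), Actg2 (5.30-fold), and Cnn1 (5.05-fold). Myl9 (2.602-fold) and Acta2 (2.62-fold) had the narrowest ranges.

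**Figure D1:**
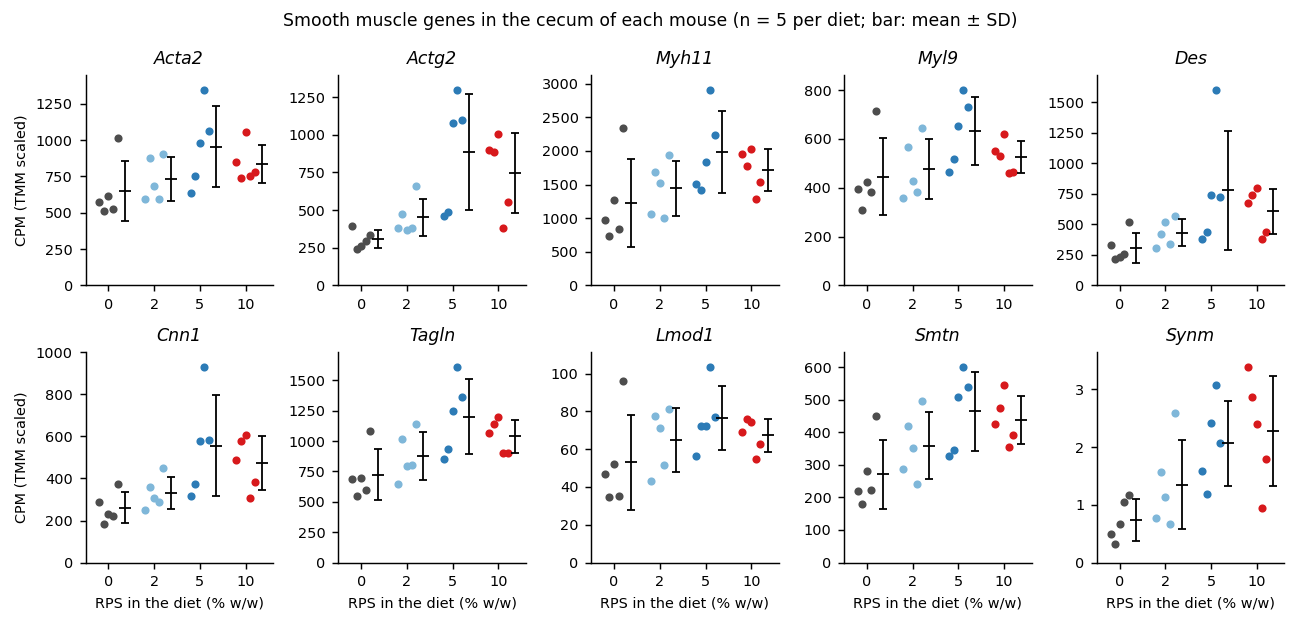
Level of each gene in each mouse (dots, CPM scaled by TMM, linear axis from 0) against the percentage of RPS in the diet, with the mean and SD of the 5 mice beside them. Actg2 lay between 245 and 395 CPM with 0% RPS and between 380 and 1004 CPM with 10% RPS, and 1 mouse fed 0% RPS was the highest of its diet for Acta2, Myh11, Myl9, Des, Cnn1, Tagln, Lmod1, Smtn, and Synm.

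The first question of the feeding design was whether the cecum of mice fed RPS differed from that of mice fed the TWD alone. The gamma actin of the gut, Actg2, rose with both of the higher doses. In mice 1 to 5 fed 0% RPS its level was 395, 245, 262, 298, and 337 CPM. In mice fed 2% RPS it was 381, 476, 365, 382, and 658 CPM, and in mice fed 5% RPS 461, 486, 1081, 1297, and 1099 CPM. With 10% RPS it was 899, 886, 1004, 380, and 555 CPM. All 5 mice fed 5% RPS were above all mice fed 0% RPS, whereas with 10% RPS 1 mouse (380 CPM) fell within the range of the controls. The log2 fold change was 1.53 (SE 0.30, adjusted p = 0.0425) with 5% RPS and 1.28 (SE 0.30, adjusted p = 0.0358) with 10% RPS in edgeR's quasi-likelihood test, or 2.88-fold and 2.43-fold. With single mice left out it passed with 10% RPS in 13 of 20 fits, the exceptions being mice 3, 4, and 5 fed 0% RPS and mice 1, 2, 3, and 5 fed 10% RPS, and with 5% RPS in 8 of 20. Over all alternatives its adjusted p reached 0.117 and 0.136. An exact permutation test of the mean log2 CPM with 10% RPS gave p = 0.0159 (two-sided; the smallest possible is 0.00794).

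The alpha actin Acta2 changed less. Its levels were 576, 514, 619, 523, and 1015 CPM with 0% RPS and 853, 739, 1058, 751, and 781 CPM with 10% RPS. With 5% RPS they were 634, 751.6, 983, 1345, and 1063 CPM, and with 2% RPS 591, 878, 685, 596, and 906 CPM. Control mouse 5 lay among the mice fed 5 or 10% RPS, and the other 4 controls were below all of these, whereas the controls and the mice fed 2% RPS overlapped. Its log2 fold change was 0.36 (SE 0.20, adjusted p = 0.333) with 10% RPS and 0.56 (SE 0.21, adjusted p = 0.215) with 5% RPS, neither of which passed.

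Since the 2 actins share 1 role, their ratio within each mouse was computed after these values had been seen and is given without a test. The CPM of Actg2 divided by that of Acta2 averaged 0.50 ± 0.14 (SD, n = 5) with 0% RPS, 0.62 ± 0.08 with 2%, 0.89 ± 0.20 with 5%, and 0.88 ± 0.28 with 10% RPS. The ratio was between 0.33 and 0.68 in the controls and between 0.51 and 1.20 with 10% RPS, so that the groups overlapped.

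**Figure D2:**
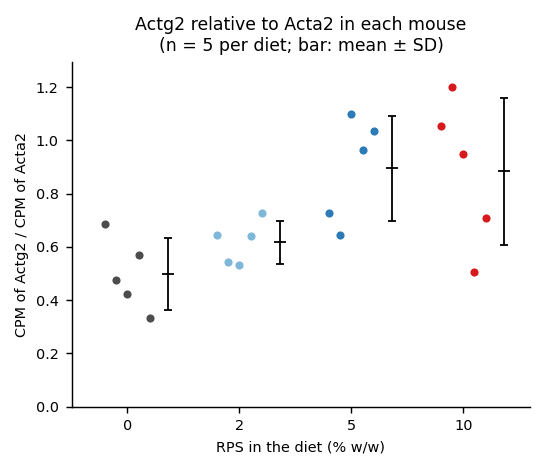
Ratio of the CPM of Actg2 to the CPM of Acta2 in each mouse (dots) against the percentage of RPS, with the mean and SD of 5 mice per diet. The means were 0.50, 0.62, 0.89, and 0.88 from 0 to 10% RPS, and the 2 lowest mice fed 10% RPS had ratios of 0.51 and 0.71.

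Myosin was less separated than the gamma actin. Myh11 was 965, 735, 1267, 840, and 2342 CPM in mice fed 0% RPS and 1960, 1784, 2032, 1278, and 1533 CPM in mice fed 10% RPS. The highest of these 10 mice was a control, and the other 4 controls were below every mouse fed 10% RPS. Myh11 had a log2 fold change of 0.48 (SE 0.28, adjusted p = 0.351). Myl9 ranged from 308 to 716 CPM (median 397) with 0% RPS and from 459 to 621 CPM (median 530) with 10% RPS, and its log2 fold change of 0.24 (SE 0.21, adjusted p = 0.555) was the smallest of the 10 genes. Without control mouse 5 the log2 fold change was 0.87 for Myh11, 0.49 for Myl9, and 0.60 for Acta2, and without control mouse 2 that of Myl9 was 0.13, none of which passed. The lowest values with other single mice left out were 0.34 for Myh11 and 0.27 for Acta2, which did not pass either.

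The regulators and organizers of the actin filament lay between these. Cnn1, which restrains the myosin ATPase, was 289, 184, 232, 222, and 375 CPM with 0% RPS and 489, 577, 608, 307, and 384 CPM with 10% RPS. Its groups overlapped by 1 control, and its log2 fold change was 0.86 (SE 0.27, adjusted p = 0.0906). Smtn, which marks contractile smooth muscle, ranged from 179 to 450 CPM with 0% RPS and from 355 to 544 CPM with 10% RPS (log2 fold change 0.69, SE 0.24, adjusted p = 0.124). Tagln, an actin-binding protein that is an early marker of the lineage, had 723 ± 212 CPM and 1039 ± 135 CPM (SD, n = 5 each) with a log2 fold change of 0.52 (SE 0.19, adjusted p = 0.148). Lmod1, which nucleates actin filaments, had 53.0 ± 25.3 CPM and 67.4 ± 8.68 CPM with a log2 fold change of 0.35 (SE 0.24, adjusted p = 0.45), which was 0.69 without control mouse 5 and 0.23 without control mouse 2. Each of these 4 genes had 1 control mouse within or above the range of the mice fed 10% RPS, and none passed the threshold.

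Of the intermediate filament genes, Des was 328, 213, 233, 257, and 515 CPM with 0% RPS and 675, 737, 798, 377, and 439 CPM with 10% RPS. The highest control lay above the 2 lowest mice fed 10% RPS. The log2 fold change was 0.97 (SE 0.35, adjusted p = 0.142) with 10% RPS and 1.33 (SE 0.35, adjusted p = 0.0912) with 5% RPS, where 1 mouse (mouse 4) reached 1598 CPM. Without that mouse the latter was 0.88. Neither passed the threshold.

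Synm passed the threshold with 10% RPS and had the largest fitted change of the 10 genes. It was 0.488, 0.319, 0.675, 1.04, and 1.18 CPM with 0% RPS, which is 15, 8, 18, 31, and 41 counts. With 10% RPS it was 3.38, 2.87, 2.40, 0.942, and 1.80 CPM, or 97, 111, 76, 20, and 48 counts. With 5% RPS it was 1.59, 1.18, 2.41, 3.08, and 2.07 CPM, and with 2% RPS 0.779, 1.57, 1.14, 0.675, and 2.58 CPM. All mice fed 5% RPS were above all controls, although the lowest of them and the highest control both had 1.18 CPM when rounded, while 1 mouse fed 10% RPS lay within the controls. The log2 fold change was 1.61 (SE 0.41, adjusted p = 0.0479) with 10% RPS, 1.46 (SE 0.41, adjusted p = 0.101) with 5% RPS, and 0.87 (SE 0.41, adjusted p = 0.849) with 2% RPS. The exact permutation test gave p = 0.0238 with 10% RPS. The adjusted p of Synm was close to the threshold. With single mice left out Synm passed in 6 of 20 fits, namely without mouse 3, 4, or 5 fed 2% RPS, mouse 2 or 4 fed 5% RPS, or mouse 4 fed 10% RPS, and over all alternatives its adjusted p was 0.00612 to 0.149.

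**Figure D3:**
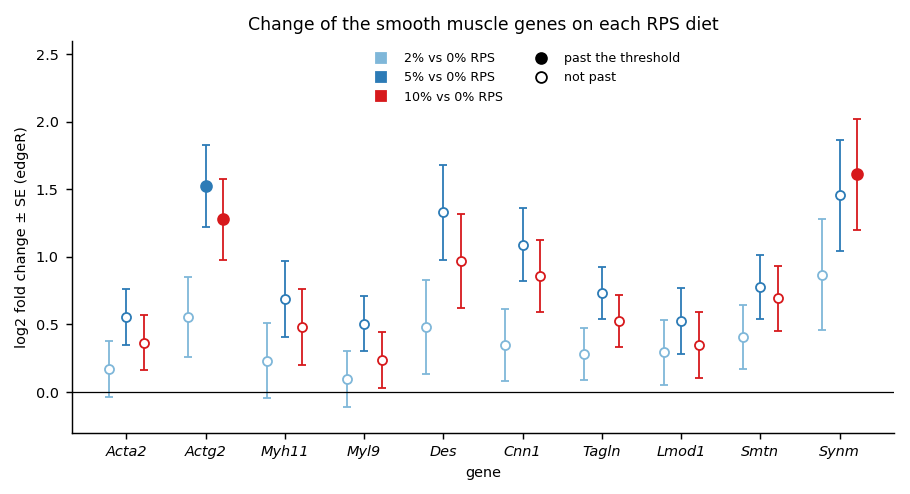
Log2 fold change against 0% RPS (edgeR, error bars 1 SE) of each gene with 2, 5, and 10% RPS, with filled symbols for changes past an adjusted p of 0.05 and a fold of 1.5. For each diet all 10 estimates lie above 0, and the filled ones are Actg2 with 5% RPS (1.53) and 10% RPS (1.28) and Synm with 10% RPS (1.61).

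For the 10 genes as a group the counts were as follows. With 10% RPS 2 of 10 were past the threshold of an adjusted p of 0.05 and a fold of 1.5, beside 84 genes (0.547%) of the 15348 tested that were called higher. At an unadjusted p under 0.05 there were 6 (Actg2, Synm, Cnn1, Smtn, Des, and Tagln), beside 9.74% of all genes, and 0 of 10 had mice of the 2 diets that did not overlap, beside 1.68%. The median log2 fold change of the 10 genes was 0.61 and that of all genes 0.00.

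With 5% RPS 1 of 10 was past the threshold, beside 0.0977% of all genes (15 genes), although all 10 had an unadjusted p under 0.05, beside 6.74%. Actg2 and Synm had no overlap between diets, beside 1.53% of all genes. The median log2 fold change was 0.75 for the 10 genes and 0.00 for all. This comparison and that with 10% RPS use the same 5 control mice, and the difference between the doses was not tested.

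With 2% RPS none of the 10 passed in edgeR or in DESeq2, beside 0% of all genes in edgeR, and 1 (Synm) had an unadjusted p under 0.05, beside 2.58%. None was without overlap, beside 0.417%, and the median log2 fold change was 0.32, with a range of 0.10 (Myl9) to 0.87 (Synm), against 0.00 for all genes.

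In a joint test of any difference among the 4 diets 0 of 10 passed an adjusted p of 0.05, beside 0.0912% of all genes, and 6 had an unadjusted p under 0.05, beside 11.1%. Actg2 was the closest (adjusted p = 0.0873). When the dose was fitted as a straight line 0 of 10 passed, beside 0.378% of all genes that rose, and 6 had an unadjusted p under 0.05, beside 9.37%. Synm (adjusted p = 0.0752) and Actg2 (adjusted p = 0.0851) came closest. DESeq2 called 3 of the 10 in the joint test and 2 in the trend, beside 2.96% and 2.02% of the genes to which it gave an adjusted p.

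Whether Synm followed the muscle content of the sample was asked by comparing it with each of the other 9 genes across mice. Synm tracked all 9. Pearson's r over 20 mice was 0.894 with Smtn, 0.872 with Cnn1, 0.868 with Actg2, 0.850 with Tagln, 0.849 with Des, 0.842 with Myh11, 0.795 with Myl9, 0.767 with Acta2, and 0.751 with Lmod1. Spearman's rho was between 0.738 (Lmod1) and 0.896 (Cnn1). All 9 pairs passed a permutation test with adjustment over the 9, with adjusted p between 1.5e-05 and 0.00021 for r and between 4.5e-05 and 0.00035 for rho (100000 permutations, smallest possible p 1e-05). Without the 2 mice farthest from the median of the other gene, r was between 0.693 and 0.868.

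**Figure D4:**
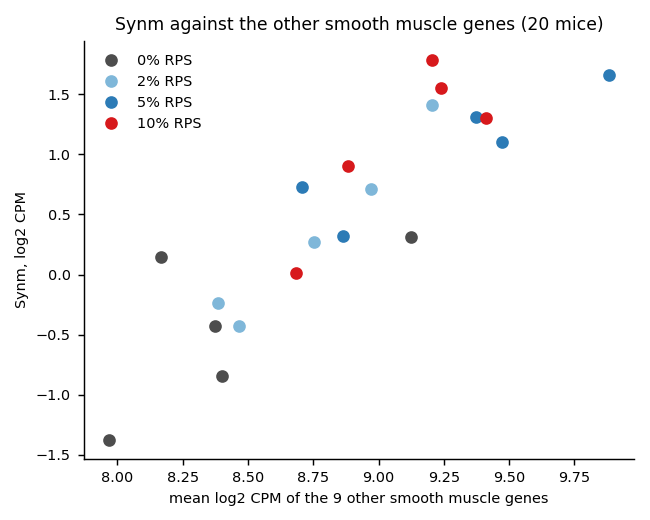
Synm (log2 CPM, vertical axis) against the mean log2 CPM of the other 9 genes (horizontal axis) in each of the 20 mice, coloured by diet. The mouse lowest on both axes was fed 0% RPS, and mice of the 4 diets lie along 1 band, with 3 of the 5 mice fed 10% RPS in its upper part.

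The relation also held within diets. On deviations from the diet means, with permutation within diets, r was between 0.669 (Acta2) and 0.806 (Smtn) and rho between 0.707 and 0.844. The adjusted p was between 0.0003 and 0.00284 for r and between 0.00054 and 0.00143 for rho. In the 5 mice of a single diet all 9 values of r were positive in each of the 4 diets, between 0.297 and 0.757 with 0% RPS, 0.832 and 0.980 with 2%, 0.686 and 0.909 with 5%, and 0.331 and 0.928 with 10% RPS, with no test for so few mice. These values share each mouse's library and its scaling. Among all other tested genes 141 of 15347 (0.919%, the 9 included) had an r with Synm of at least 0.751, and the median gene had 0.01.

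The pairs with Synm nonetheless had a lower median r than the pairs among the other 9 genes, though a looser tie was not particular to Synm. The 36 pairs among the other 9 genes had a median r of 0.910 (0.675 for Actg2 and Lmod1 to 0.977 for Des and Cnn1), and the 9 pairs with Synm had a median of 0.849. Within diets the medians were 0.875 and 0.744. Actg2 had an r under 0.849 with Acta2 (0.793), Myh11 (0.768), Myl9 (0.770), Lmod1 (0.675), and Smtn (0.835). Its r was above 0.849 with Des (0.910), Cnn1 (0.954), and Tagln (0.881). These are descriptions without a test, and Synm had the fewest counts.

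The change of Synm with diet was then estimated at an equal level of the other 9 genes, with their mean log2 CPM as a covariate in the model of all genes. This mean is called the muscle level here. It is a level of RNA that does not tell the share of muscle cells from the RNA of each cell. It also includes Actg2, which itself differed between the diets. Synm rose with this level, by 1.36 log2 units (SE 0.27, adjusted p = 0.00743) for each unit. In this fit its log2 fold change with 10% RPS was 0.69 (SE 0.34), against 1.61 without the covariate, with an unadjusted p of 0.0583 and an adjusted p of 0.26 in edgeR. With 5% RPS it was 0.31 (SE 0.36, adjusted p = 0.747), against 1.46. A difference between the diets beyond the muscle level was thus not detected in this fit, which does not show that there was none. No gene of the table passed the threshold in this fit (0%). In the same terms, Synm minus the mean of the other 9 was -8.84 ± 0.52 log2 units (SD, n = 5) with 0% RPS, -8.41 ± 0.41 with 2%, -8.24 ± 0.23 with 5%, and -7.97 ± 0.47 with 10% RPS, with overlap between all diets. With Myh11 alone as the covariate, the log2 fold change of Synm with 10% RPS was 0.93 (SE 0.34, adjusted p = 0.126 in edgeR). With a list of other contraction genes as the covariate it was 0.80 (SE 0.37, adjusted p = 0.27). The estimate thus depended on the covariate, and neither passed.

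The genes outside the set with the most similar pattern were also looked up. Over the 20 mice, among 13568 genes with a mean of at least 1 CPM, those closest to Synm were Kank1 (r = 0.918), a regulator of actin polymerization, Gmpr (0.905), a reductase of purine metabolism, Cald1 (0.892), the actin-binding protein caldesmon, Clmp (0.886), an adhesion molecule, and Atp2b4 (0.886), a calcium pump of the plasma membrane. Those closest to the mean of the other 9 were Mylk (0.977), the myosin light chain kinase, the tropomyosins Tpm1 (0.976) and Tpm2 (0.975), Atp2b4 (0.962), and Csrp1 (0.956), a LIM protein of smooth muscle. Of these 9 different genes Cald1 alone was past the threshold with 10% RPS (log2 fold change 0.69, SE 0.18, adjusted p = 0.0491), and this call was lost in 15 of 20 fits with single mice left out.

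Other genes of the smooth muscle cell were examined by lists of their role. Of 17 genes of myosin activation and calcium sensitivity 1 (Cald1) was past the threshold with 10% RPS, beside 0.547% of all genes that were called higher. At an unadjusted p under 0.05 there were 4 higher and 1 lower (beside 9.74% and 9.75% of all genes), and the median log2 fold change was 0.09. With single mice left out Cald1 passed in 5 of 20 fits, namely without mouse 3, 4, or 5 fed 2% RPS, mouse 4 fed 5% RPS, or mouse 4 fed 10% RPS, and in 3 of 7 other settings (adjusted p 0.00835 to 0.153 over all). Myl6, the essential light chain of nonmuscle and smooth muscle myosin and a gene with a high level per length in this list, did not pass (-0.21, SE 0.14). Of 26 genes of dense plaques and the dystrophin complex, which anchor the filaments, 2 were past the threshold (beside the same 0.547% of all genes). They were Synpo2, an actin-bundling protein (0.88, SE 0.22, adjusted p = 0.0411), and Ldb3, a PDZ-LIM protein of muscle (0.75, SE 0.19, adjusted p = 0.0408). Both calls were lost without any single mouse fed 0% RPS and without mouse 1, 2, 3, or 5 fed 10% RPS, and that of Synpo2 also without mouse 1 fed 2% RPS or mouse 3 fed 5% RPS, so that they passed in 9 (Synpo2) and 11 (Ldb3) of 20 fits, with adjusted p up to 0.132 and 0.115. In this list 11 were higher and 0 lower at an unadjusted p under 0.05, with a median of 0.32, and the cross-linker Flna (0.54, SE 0.17, adjusted p = 0.0942) and Csrp1 (0.56, SE 0.22, adjusted p = 0.172) had the highest levels.

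Of 12 tested genes of ion channels and calcium stores none passed with 10% RPS in edgeR, with 4 higher and 1 lower at an unadjusted p under 0.05 (beside 9.74% and 9.75% of all genes, which also holds for the receptors) and a median of 0.27. The calcium pump Atp2a2 had -0.27 (SE 0.09, adjusted p = 0.098) and Jph2 0.51 (SE 0.23, adjusted p = 0.225). Casq2, a calcium store protein, passed with 5% RPS (log2 fold change 1.001, adjusted p = 0.0434), as did Ldb3 of the list before (0.97, adjusted p = 0.0425). No other gene outside the 10 in these lists passed with 5% RPS in edgeR. Pln and Sln, with 60 and 19 counts over all 20 mice, were too low to be tested. Of 8 tested receptors none passed in edgeR (1 higher and 1 lower at an unadjusted p under 0.05, median -0.18), Chrm2, a muscarinic receptor through which acetylcholine acts on gut muscle, having 0.66 (SE 0.20, adjusted p = 0.0792) and Ednrb -0.15 (SE 0.15). Chrm2 passed by DESeq2 (adjusted p = 0.0276), and in edgeR with 1 surrogate variable or without mouse 4 fed 10% RPS.

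Of 11 tested transcription factors and coactivators of the smooth muscle programme none passed in edgeR, 2 were higher at an unadjusted p under 0.05 (beside 9.74% of all genes), and the median was 0.00. These were Mef2c (1.04, SE 0.30, adjusted p = 0.0737) and Tead1 (0.29, SE 0.09, adjusted p = 0.0875), which were named after their values were seen. With 5% RPS Mef2c had 0.15 (adjusted p = 0.893 in edgeR) and Tead1 0.25 (adjusted p = 0.194), where the 10 muscle genes had a median of 0.75. The cells that gave the RNA of Mef2c were not identified. Srf itself had -0.18 (SE 0.25, adjusted p = 0.73) and Mef2d -0.22 (SE 0.15, adjusted p = 0.417). Of 12 other intermediate filament genes and partners of synemin none passed in edgeR. At an unadjusted p under 0.05 there were 1 higher and 1 lower (beside 9.74% and 9.75% of all genes), with a median of -0.10. The most abundant of these, the keratins Krt19 (-0.31, SE 0.12) and Krt8 (-0.12, SE 0.13), belong to the epithelium.

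Genes of other muscle types were low. Of 8 tested marker genes of skeletal muscle the summed level was 21.5 to 48.5 CPM with 0% RPS and 27.2 to 39.9 CPM with 10% RPS, most of it from Ckm (27.2 CPM on average, followed by Mylpf with 2.46 CPM). Myh1 and Tnnc2 had 47 and 21 counts over all mice, and Myh4 and Myh7 were not analysed here. The 6 heart markers summed to 6.38 to 7.995 CPM with 10% RPS, and the highest per length were Tnni3 (1.42 CPM) and Tnnt2 (2.74 CPM). No gene of either list passed in edgeR, and 1 skeletal gene was higher at an unadjusted p under 0.05 (beside 9.74% of all genes).

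Cells that lie within or beside the muscle coat were checked by their markers. The 5 genes of the interstitial cells of Cajal, the pacemakers of the coat, summed to a median of 103.7 CPM with 0% RPS and 99.6 CPM with 10% RPS. None passed in edgeR, and 1 was lower at an unadjusted p under 0.05 (beside 9.75% of all genes). Kit had 0.11 (SE 0.10) and Ano1 -0.09 (SE 0.15). The 12 genes of enteric neurons had medians of 92.6 and 106.2 CPM and a median log2 fold change of -0.24, with 0 at an unadjusted p under 0.05, and Uchl1 (-0.34, SE 0.18) and Stmn2 (-0.36, SE 0.20) were the highest per length. Over the same mice the sum of the 10 muscle genes had a median of 3900 CPM with 0% RPS and 6942 CPM with 10% RPS. The 7 glial genes summed to medians of 427.4 and 451.5 CPM, most of which was Erbb3 (407.6 CPM), a gene that epithelium also expresses, and Sox10 had -0.30 (SE 0.35).

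The 10 fibroblast genes summed to 474 to 639 CPM with 0% RPS, 528 to 766 CPM with 2% RPS, 649 to 950 CPM with 5% RPS, and 587 to 887 CPM with 10% RPS. The mice fed 5% RPS lay above all controls, and those fed 2 or 10% RPS overlapped with them. Most of the sum came from the collagens Col3a1 (245.6 CPM on average), Col1a2 (150.6 CPM), and Col1a1 (86.3 CPM). With 10% RPS none passed in edgeR, with 5 higher and 1 lower at an unadjusted p under 0.05 (beside 9.74% and 9.75% of all genes). With 5% RPS none passed either, with 7 higher and 0 lower at an unadjusted p under 0.05 (beside 6.74% higher) and a median of 0.48. The collagen Col3a1 had 0.58 (SE 0.20, adjusted p = 0.129) and Dpt 0.34 (SE 0.17, adjusted p = 0.269), whereas Pdgfra, a receptor that marks fibroblasts, had -0.31 (SE 0.13, adjusted p = 0.183). Of 6 tested pericyte and vessel wall genes none passed in edgeR, with 1 higher and 1 lower at an unadjusted p under 0.05, and with Rgs5, which smooth muscle of vessels also expresses, at 0.48 (SE 0.20, adjusted p = 0.195) and Mcam at 0.16 (SE 0.14), and the list summed to medians of 350.5 and 470.7 CPM. The 8 endothelial genes summed to medians of 151.8 and 147.6 CPM, with 3 lower at an unadjusted p under 0.05 (beside 9.75% of all genes), Plvap at -0.34 (SE 0.16) and Pecam1 at 0.21 (SE 0.12).

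Markers of the epithelium were lower in sum with 10% RPS, with overlap between the diets. The 13 genes summed to 41056 to 48235 CPM with 0% RPS and to 28795 to 44821 CPM with 10% RPS. The carbonic anhydrase Car1, which gave the largest part, had -0.43 (SE 0.14, adjusted p = 0.0956), whereas Slc26a3, the chloride and bicarbonate exchanger of the colon surface, was past the threshold in the other direction (0.61, SE 0.16, adjusted p = 0.0487). With single mice left out Slc26a3 passed in 7 of 20 fits, namely without mouse 2 fed 0% RPS, mouse 3, 4, or 5 fed 2% RPS, mouse 4 or 5 fed 5% RPS, or mouse 4 fed 10% RPS (adjusted p up to 0.136). Of the 13 genes 1 was higher and 5 were lower at an unadjusted p under 0.05, beside 9.74% and 9.75% of all genes. Of the 7 tested genes of mesothelium and serosal fat none passed in edgeR, and they had a median of -0.78 and 2 that were lower at an unadjusted p under 0.05 (Cidec and Krt14). The mesothelial markers Msln (2.08, SE 1.002, adjusted p = 0.264) and Upk3b (0.20, SE 1.16) had estimates above 0. The genes listed for fat had estimates below 0, with Cidec at -0.97 (SE 0.29, adjusted p = 0.0793) and Fabp4 at -0.78 (SE 0.72), the latter being -0.17 without control mouse 1 and -1.85 without mouse 4 fed 10% RPS. Cidec was 56.9 to 83.5 CPM with 0% RPS and 21.4 to 71.1 CPM with 10% RPS. Adipoq, of the same list, was 1.78 to 34.6 CPM and 0 to 27.8 CPM. The 2 genes thus differed in level and spread, and whether Cidec RNA came from serosal fat was not tested.

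Immune markers varied widely among mice of the same diet. The 10 lymphocyte genes summed to 40.6, 209, 17.2, 29.7, and 18.2 CPM in mice 1 to 5 fed 0% RPS (median 29.7) and to 216, 21.4, 269, 213.5, and 257 CPM in mice 1 to 5 fed 10% RPS (median 216). Thus 4 of the 5 mice fed 10% RPS were above all controls, and the other was within their range. The median log2 fold change of the list, 1.23, was above that of the 10 muscle genes. None of the 10 lymphocyte genes had an unadjusted p under 0.05 or passed in edgeR. Cd79a (1.67, SE 1.22) and Cd79b (1.84, SE 1.11), parts of the B cell receptor, had 3.36 and 3.63 without mouse 2 fed 0% RPS, and 0.01 and 0.43 with 1 surrogate variable. The 7 myeloid genes had a median of 0.33, with Lyz2 at 1.11 (SE 0.42, adjusted p = 0.159) and C1qa at 0.03 (SE 0.20). The part of any of these cell types in the changes of the 10 genes was not tested.

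**Figure D5:**
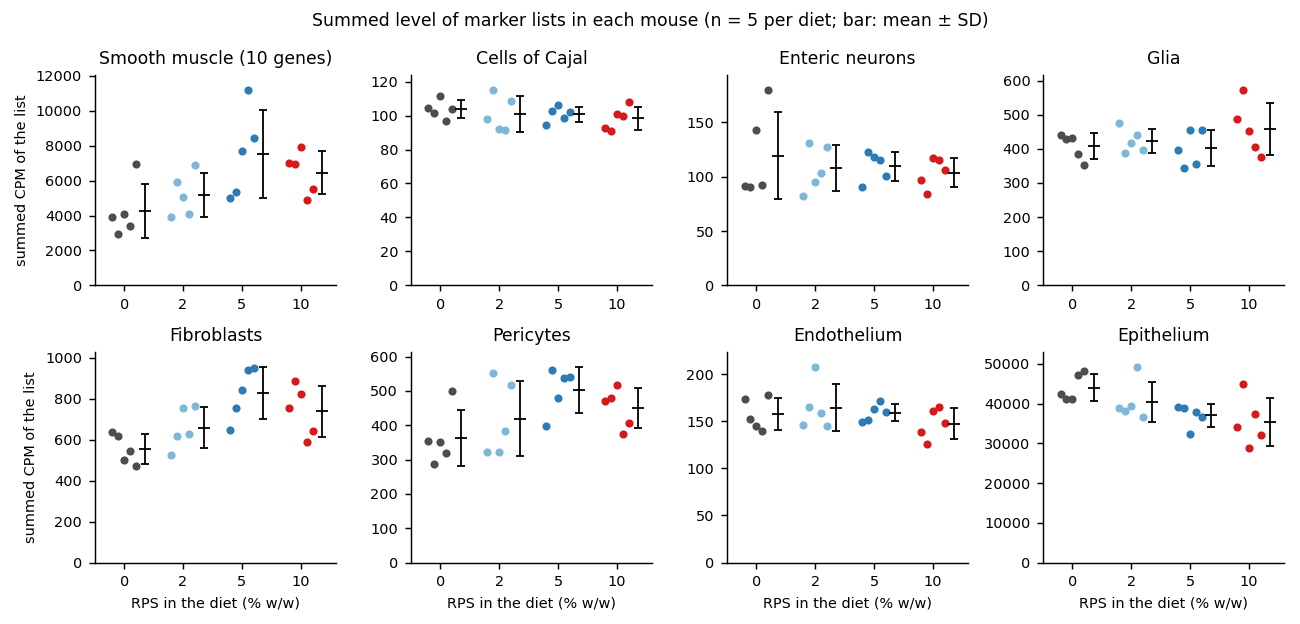
Summed CPM of the 10 smooth muscle genes and of 7 marker lists in each mouse (dots) against the percentage of RPS, with the mean and SD of 5 mice per diet and axes from 0. The median of the smooth muscle sum was 3900, 5050, 7703, and 6942 CPM from 0 to 10% RPS, that of the cells of Cajal 103.7, 97.8, 101.9, and 99.6 CPM, and that of the epithelium 42463, 38983, 38008, and 34091 CPM.

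The gene models bear on how firmly single genes can be read. In GRCm39 Actg2 lies at chr6:83489887-83513551 and Synm at chr7:67379908-67409527, both on the minus strand. Of the 50-base stretches of its canonical transcript, Actg2 and Lmod1 shared 0% with any other annotated transcript and Myh11 shared 0.4%, with Myh9 and Myh10. Tagln shared 47.6% and Cnn1 38.3% with genes on the opposite strand, Smtn 14.9%, Acta2 9.46%, Myl9 8.98%, Des 7.81%, and Synm 5.74%. The libraries were made with a stranded kit, but whether strand was used in counting is not given in the sources used here, so reads of these stretches may have been divided. Of the opposite genes in the table, Pcsk7 (beside Tagln), Elof1 (Cnn1), and Stambpl1 (Acta2) had log2 fold changes of -0.15, -0.17, and -0.18 with 10% RPS. Ttc23, beside Synm, had 12.7 CPM and 0.31 (adjusted p = 0.267), with r = 0.458 to Synm, and Selenom, beside Smtn, had 0.53 (adjusted p = 0.0586) and r = 0.842 to Smtn.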

How the data were processed

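The authors isolated RNA from the cecum, prepared stranded poly(A) libraries, and sequenced single-end reads of 50 bases. Low-quality nucleotides and ambiguous reads were removed, and reads were mapped to GRCm39 and counted per gene in the CLC Genomics Workbench. The deposited values are raw counts. The annotation release, the treatment of multimapping reads, and the strand setting are not given in the sources used here.

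Mice were assigned to diets by the labels and numbered 1 to 5 in accession order. Nothing says more than that they are separate mice. Symbols and gene models came from GENCODE mouse release 39, which holds 19827 of the 19887 identifiers, and promoter sequences from its genome, GRCm39. The main test was that of edgeR 4.0.16 under R 4.3.3 (filterByExpr, minimum count 10 and minimum total 15; TMM; robust quasi-likelihood over all 4 diets), which tested 15348 genes with Benjamini-Hochberg adjustment over all of them. A gene was past the threshold at an adjusted p of at most 0.05 and a fold of at least 1.5, without the fold for the trend and the joint test. Log2 CPM used a prior count of 2. Correlations used 100000 permutations. In simulated counts of 15348 genes for 10 against 0% RPS, the test found 74 of 100 genes with a 2-fold change and 95 of 100 with a 4-fold change, beside 2 false calls. The changed genes were drawn at random and varied independently of each other. These rates therefore need not hold for the 10 genes, which varied together across mice. The SEs and SDs include the spread between mice.

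Named genes were the 10, from each other list those past the threshold with 10% RPS (at most 4) and the 2 with the highest CPM per kb, and the 5 genes most correlated with Synm and with the mean of the other 9. Casq2, the genes too low to be tested, and the opposite-strand genes were added after their values were seen. Mef2c, Tead1, Msln, Upk3b, Krt14, Adipoq, Pdgfra, Col1a1, and Col1a2 were added likewise. The values of 1 gene that this rule names, and the promoter of 1 of the 5 genes with a CArG box, are not reported here. The genes, lists, and tests were chosen with earlier results of these data known. Alternatives were DESeq2 1.42.0 (size factors, or its Wald test), no filter, at least 10 counts in every mouse, no robust fit, 1 surrogate variable (sva 3.50.0), only the 2 diets compared, no fold threshold, the rank of the dose, other muscle covariates, a prior count of 0.5, and each mouse left out. Figures were drawn with matplotlib 3.10.9.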

Additional observations from a re-analysis of the deposited data

Results flagged for a closer look

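Among 48 groups of 5 mice (the 10 genes, the mean of the other 9, and the ratio of Actg2 to Acta2, each in 4 diets) 1 had a mouse that stood far from the rest. Mouse 5 fed 0% RPS had 1015 CPM of Acta2 against 619 CPM in the next highest control, a gap of 0.728 of the range of the group on the log2 scale, where the limit for 5 samples is 0.710. Chance flags about 1 in 20 such groups. The same mouse was also the highest control for Myh11, Myl9, Des, Cnn1, Tagln, Lmod1, Smtn, and Synm.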

How the results depend on the processing

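No paired analysis was possible because the mouse numbers differ between the diets. The direction of all 10 genes with 5 and 10% RPS was the same in all settings without a muscle covariate, but which genes passed was not. With the mean of the other 9 as covariate, those 9 are set against their own mean. In that fit Acta2 (-0.15), Myh11 (-0.17), Myl9 (-0.28), and Lmod1 (-0.19) lay below 0 with 10% RPS, and none of the 10 passed. With 10% RPS the count of genes past the threshold was 2, and it was 3 by DESeq2's Wald test (Actg2, Cnn1, and Synm, beside 1.43% of all genes), 1 with no filter (Actg2), 1 with at least 10 counts in every mouse (Actg2; Synm could not be tested), 1 with 1 surrogate variable (Synm), 1 with only the 2 diets compared (Actg2), and 0 to 3 with single mice left out. With 5% RPS it was 1, 6 by DESeq2's Wald test (Actg2, Cnn1, Des, Smtn, Synm, and Tagln, beside 0.849% of all genes), and 0 to 4 with single mice left out. In the joint test it was 0, 3 by DESeq2 (2.96% of all genes), and 0 to 1 with single mice left out. In the trend it was 0, 2 by DESeq2 (2.02% of all genes), 4 with 1 surrogate variable (3.08%), 3 with the rank of the dose (1.32%), and 0 to 2 with single mice left out. The log2 fold change of Synm with 10% RPS was 1.62 with no filter (adjusted p = 0.0541), 1.62 with only the 2 diets (adjusted p = 0.0654), and 1.43 to 1.86 with single mice left out, its adjusted p over all alternatives being 0.00612 to 0.149. At equal muscle level Synm never passed (log2 fold change 0.51 to 0.93, the highest with Myh11 alone as the covariate, adjusted p 0.122 to 0.876). All 9 correlations of Synm passed with DESeq2 size factors, with a prior count of 0.5, and with each mouse left out, the settings tried for them. With 5% RPS the log2 fold changes of Myh11 and Lmod1 were 1.07 and 0.86 without control mouse 5. The cause of these differences was not tested.

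Among genes outside the set, log2 fold changes with 10% RPS changed sign with 1 surrogate variable for Ano1 (0.10), C1qa (-0.28), Ednrb (0.0781), and Krt8 (0.00357). With single mice left out they spanned 0 for C1qa (-0.0161 to 0.16), Ckm (-0.13 to 0.29), Mylpf (-0.13 to 0.0245), Sox10 (-0.49 to 0.21), and Srf (-0.26 to 0.11). Without control mouse 5 they were nearer 0 for Myl6 (-0.0031), Mef2d (-0.0674), Stmn2 (-0.12), Uchl1 (-0.15), and Krt19 (-0.20). With single mice left out they also ranged by over 1.5 times for Mcam (0.0822 to 0.27), Krt8 (-0.22 to -0.0527), Ednrb (-0.23 to -0.0821), and Ano1 (-0.15 to -0.0033). With 1 surrogate variable they moved by over 1.5 times for Dpt (0.59), Lyz2 (0.52), Mcam (0.26), Pecam1 (0.0037), Plvap (-0.55), Srf (-0.40), and Mef2d (-0.40).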
